A study of Homo sapiens with 4 samples.

Results

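The genes described here are 10 components of the Nodal pathway. They are the ligands NODAL and GDF3, the coreceptor TDGF1, the secreted antagonists CER1, LEFTY1 and LEFTY2, the receptors ACVR1B, ACVR2A and ACVR2B, and FOXH1, a DNA-binding partner of the SMAD proteins. They were chosen by name: the rows of the expression table whose gene symbol equals a member were taken, which gave 1 row for each of the 10 genes, out of 58274 gene identifiers in the table. The rule uses names and no measured value, but the genes were proposed with earlier results of these data known. All 10 passed the filter of at least 1 FPKM (fragments per kilobase of transcript, scaled to the mapped fragments of the library) in at least 1 library, as did 17137 genes in all.

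RNA sequencing was performed on undifferentiated cells of BC1, an induced pluripotent line of human origin, and on 3 populations that this line gave in a chemically defined hematopoietic differentiation. These were mesoderm cells positive for APLNR on day 2, hemogenic endothelial progenitors (CD31+CD34+) on day 5, and hematopoietic progenitors (CD43+) on day 8. With 1 library for each of these 4 groups, no value has a replicate check and no p-value is given. The labels state that cells received activin A at 40 ng/ml with BMP4 at 50 ng/ml for 2 days, and then VEGF at 40 ng/ml with bFGF at 50 ng/ml for 6 days. The study's methods give the amounts of activin A and BMP4 the other way round. All the differentiated populations thus came from a single cell line that had been given activin A, an added ligand of the same receptors, until day 2. Depths read from the steps between low values were between 19700000 and 23600000 mapped fragments, and between 13554 and 14335 genes reached 1 FPKM in a library.

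Nodal is a secreted protein of the TGF-β family. It binds type II activin receptors (ACVR2A, ACVR2B) and the type I receptor ACVR1B, and unlike activin it needs an EGF-CFC coreceptor such as TDGF1 (also named CRIPTO). The activated receptors phosphorylate SMAD2 and SMAD3, which join SMAD4 and act at target genes with partners such as FOXH1. LEFTY1 and LEFTY2 block the coreceptor and the ligand, CER1 (Cerberus) binds the ligand outside the cell, and NODAL, LEFTY1 and LEFTY2 are themselves targets of the pathway. The pathway helps to hold human pluripotent cells in their state and patterns mesoderm and endoderm in the embryo.

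Marker genes were read to describe the populations. The lists hold the genes behind the labels themselves: APLNR, CD34, PECAM1 (CD31) and SPN (CD43). A high level of these in their own population follows from how the cells were chosen and is no separate check of identity. The summed level of 6 pluripotency markers (POU5F1, SOX2, NANOG, DPPA4, ZFP42, L1TD1) was 2735 FPKM in BC1, 766 in APLNR+ cells, 32.5 in CD31+CD34+ cells and 23.7 in CD43+ cells. The sum over 6 mesoderm markers (MESP1, TBXT, MIXL1, APLNR, PDGFRA, KDR) was highest in APLNR+ cells (1740 FPKM), of which APLNR alone gave 1073 FPKM. That over 5 endothelial markers (CDH5, PECAM1, TIE1, EMCN, CD34) was highest in CD31+CD34+ cells (650 FPKM). That over 5 hematopoietic markers (SPN, GATA1, RUNX1, ITGA2B, HBE1) was highest in CD43+ cells (6673 FPKM), of which HBE1 gave 5271 FPKM. KDR went against its sum, at 70.0 FPKM in APLNR+ cells and 569 FPKM in CD31+CD34+ cells. PECAM1 went from 93.1 FPKM in CD31+CD34+ to 126 FPKM in CD43+ cells, and EMCN from 3.44 to 4.36 FPKM. The other genes of these lists were highest where their sum was. The populations were read as bulk samples, in which fewer cells of a type and less RNA per cell cannot be told apart.

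The promoters of CER1 and GDF3 are given because CER1 had the largest swing of the 10 genes and because CER1 and GDF3 were the 2 members whose promoter held the FOXH1 motif searched for. That of NODAL is given beside them as a promoter without a match. They are RefSeq sequences on GRCh38.p14, from 250 bases before to 50 bases after the annotated start, read 5′ to 3′ on the gene's own strand, with the motif in capitals. CER1 is at chr9:14722684-14722983, GDF3 at chr12:7695726-7696025 and NODAL at chr10:70441632-70441931, all on the minus strand. The RefSeq start used for NODAL lies inside the gene span given below, which on this strand begins at 70447951.
CER1: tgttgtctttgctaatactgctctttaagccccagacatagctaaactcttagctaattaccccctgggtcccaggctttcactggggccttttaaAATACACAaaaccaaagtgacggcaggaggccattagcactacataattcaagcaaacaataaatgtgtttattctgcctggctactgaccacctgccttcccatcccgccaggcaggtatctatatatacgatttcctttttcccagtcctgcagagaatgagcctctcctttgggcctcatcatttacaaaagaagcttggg
GDF3: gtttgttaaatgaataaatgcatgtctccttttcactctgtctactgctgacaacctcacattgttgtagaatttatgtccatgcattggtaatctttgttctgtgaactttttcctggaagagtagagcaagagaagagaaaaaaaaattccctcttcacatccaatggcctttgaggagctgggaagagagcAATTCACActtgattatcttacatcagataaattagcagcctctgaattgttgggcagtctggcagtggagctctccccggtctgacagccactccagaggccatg
NODAL: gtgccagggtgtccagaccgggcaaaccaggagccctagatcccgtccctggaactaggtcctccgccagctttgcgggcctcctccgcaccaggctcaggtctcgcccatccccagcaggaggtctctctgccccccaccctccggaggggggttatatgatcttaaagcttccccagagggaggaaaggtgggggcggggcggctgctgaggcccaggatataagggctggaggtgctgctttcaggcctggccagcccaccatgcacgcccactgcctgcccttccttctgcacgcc

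Promoters of 7 members were matched in the RefSeq table, with 2 promoters each for TDGF1 and ACVR1B. LEFTY1, LEFTY2 and FOXH1 were not matched. The FOXH1 motif was searched as AATNCACA on both strands. It was found in CER1 as AATACACA, 154 bases upstream of the start, and in GDF3 as AATTCACA, 56 bases upstream. Of 35116 promoters of the same length, 3.31% held it. The other motifs searched were the SMAD palindrome GTCTAGAC, the POU octamer ATTTGCAT, the T-box motif AGGTGTGA, the motif of paired homeodomains and the TATA box TATAAA, which 0.202%, 1.77%, 0.980%, 0.365% and 11.5% of those promoters held. None of these 5 had a match in a member promoter, which says only that these letters are not in these windows.

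LEFTY1 and LEFTY2 are near copies, so the level of each depends on how fragments were shared between them. Their coding sequences are 1098 bases each and are identical at 1067 of them (97.2%), with a longest identical run of 300 bases.

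The 10 genes were followed from BC1 through APLNR+ and CD31+CD34+ to CD43+ cells. All 10 had at least 1 FPKM in BC1 and in APLNR+ cells, against 5 in CD31+CD34+ cells and 7 in CD43+ cells. NODAL, TDGF1, LEFTY1 and LEFTY2 were highest in BC1, while GDF3, CER1, ACVR2A, ACVR2B and FOXH1 were highest in APLNR+ cells. ACVR1B was highest in CD31+CD34+ cells, and it was the only member with a higher level in CD43+ cells than in BC1.

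**Figure D1:**
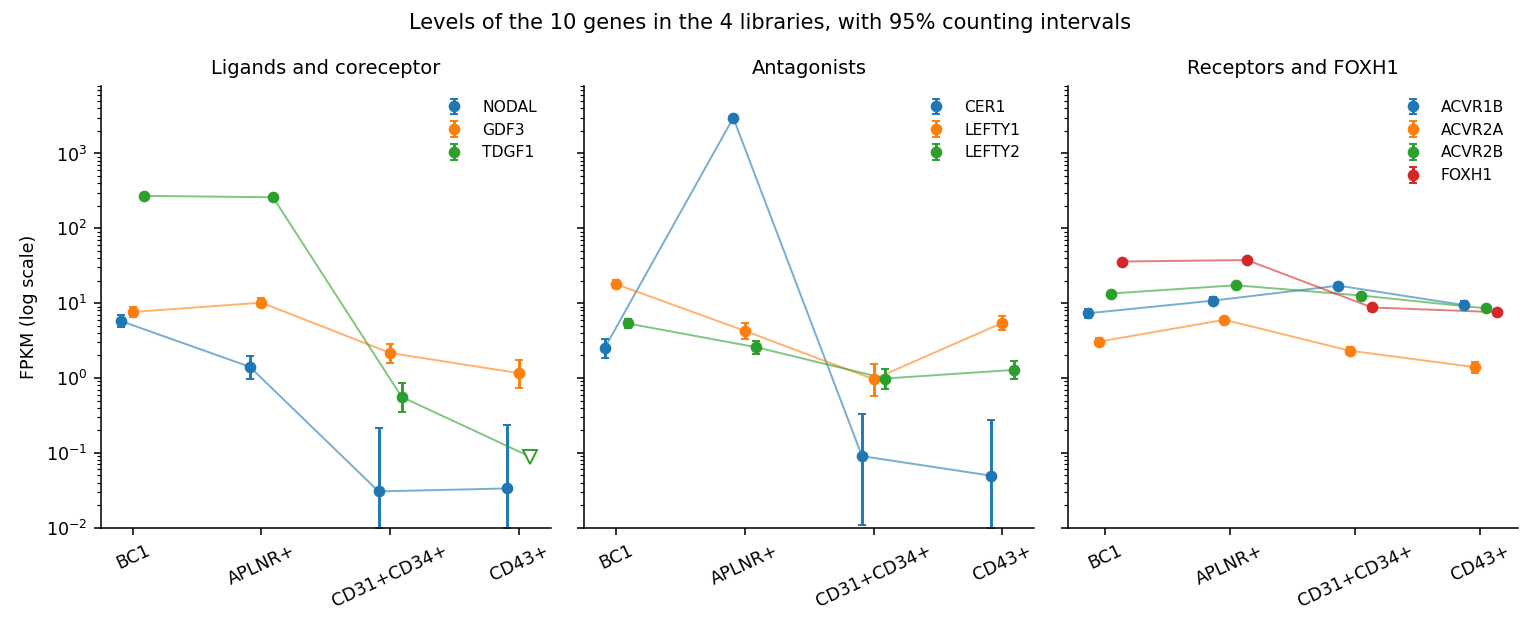
FPKM of the 10 genes (log axis) in the 4 libraries, 1 library each, by role. Points are FPKM values, bars are 95% counting intervals cut off at 0.01 FPKM, and the open triangle is the 3-fragment floor of TDGF1 in CD43+ cells, where it was listed at 0. CER1 stood at 2991 FPKM in APLNR+ cells and at 2.50 FPKM or less in the other libraries, while the receptors stayed between 1.40 and 17.3 FPKM.

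A member was counted as having risen or fallen when its difference of log2(FPKM + 1) between consecutive populations was at least 1. At day 2, relative to BC1, 1 of 10 rose (CER1) and 2 of 10 fell (NODAL, LEFTY1), where 9.15% of all 17137 genes rose and 9.32% fell. The members' median difference was 0.20, against 0.00 over all genes. With 10 genes, these counts were close to the background shares. From APLNR+ to CD31+CD34+ cells, none rose and 7 of 10 fell (NODAL, GDF3, TDGF1, CER1, LEFTY1, ACVR2A, FOXH1), against a share of 13% of all genes rising and 11.4% falling. The median difference was -1.33 for the members and 0.01 for all genes. From CD31+CD34+ to CD43+ cells, LEFTY1 rose and no member fell, where 7.63% of all genes rose and 13.5% fell, with medians of -0.33 and -0.08. The interval from day 2 to day 5 thus held 7 of the 11 called changes. By the labels, activin A and BMP4 were replaced by VEGF and bFGF in the same interval. These changes of factors and the passage to the next population cannot be told apart.

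**Figure D2:**
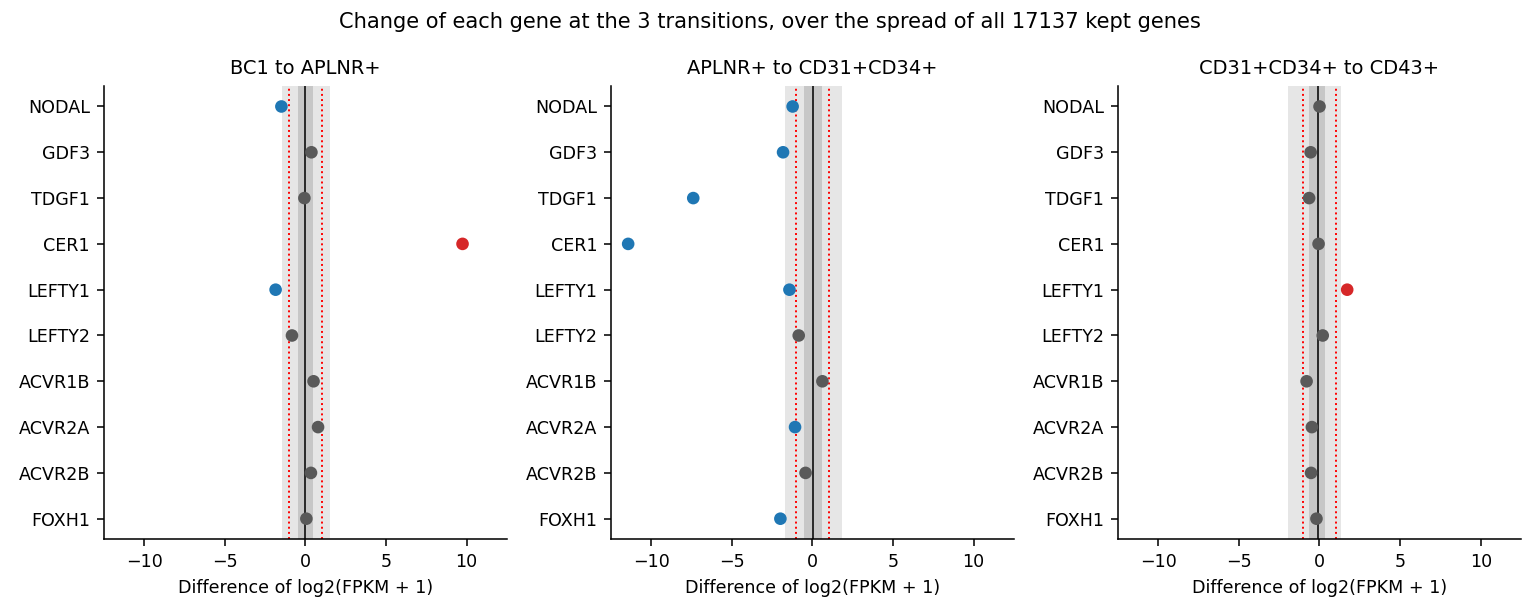
Difference of log2(FPKM + 1) for each gene at the 3 transitions. Light and dark grey mark the 5th to 95th and the 25th to 75th percentiles of all 17137 genes, the black line their median, the red dotted lines a difference of 1 in either direction, and red and blue points the members that rose and fell. CER1 moved by 9.74 and then by -11.42, and TDGF1 moved by -7.39 between APLNR+ and CD31+CD34+ cells.

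NODAL (ENSG00000156574.9, minus strand, chromosome 10 from 70432315 to 70447951 on GRCh38) is the ligand that gives the pathway its name. Its level was 5.76 FPKM in BC1, 1.41 in APLNR+ cells, 0.031 in CD31+CD34+ cells and 0.034 in CD43+ cells. NODAL was therefore at a modest level at the outset and near 0 from day 5, where 1 fragment was counted in each of the CD31+CD34+ and CD43+ libraries. It was 4.08-fold lower in APLNR+ cells than in BC1 (95% counting interval 2.81 to 6.28, a difference of -1.49 on the log2 scale). From APLNR+ to CD31+CD34+ cells it was 46.2-fold lower, with an interval of 5.98 to 1454 that reflects that 1 fragment. No fold is given between the last populations, since both were under the floor of 3 fragments. An annotated transcript of unsettled status on the opposite strand, AC022532.1, covers 41.2% of the exonic bases of NODAL and stood at 0.462, 0.333, 0.088 and 0 FPKM in the same order. With both summed, the step from APLNR+ to CD31+CD34+ cells was 14.8-fold in place of 46.2-fold (a log2 difference of -1.30), and the last step was -0.11 in place of 0.00 on the log2 scale.

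GDF3 (ENSG00000184344.3, minus strand, chromosome 12 from 7689782 to 7695776) is a related ligand that also needs a coreceptor of the TDGF1 kind and is a known marker of pluripotent cells. It stood at 7.61 FPKM in BC1, 10.2 in APLNR+ cells, 2.16 in CD31+CD34+ cells and 1.16 in CD43+ cells. GDF3 thus did not share the early drop of NODAL. It was 1.33-fold higher in APLNR+ cells than in BC1 (1.08 to 1.66), then 4.70-fold lower in CD31+CD34+ cells (3.43 to 6.54) and a further 1.86-fold lower in CD43+ cells (1.12 to 3.18). NODAL made up 43.1% of the summed ligand FPKM in BC1, 12.2% in APLNR+ cells, 1.39% in CD31+CD34+ cells and 2.80% in CD43+ cells. The ligand sum itself was 13.4, 11.6, 2.19 and 1.20 FPKM.

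The coreceptor TDGF1 (ENSG00000241186.9, plus strand, chromosome 3 from 46574534 to 46582463) stood far above both ligands in BC1 and APLNR+ cells. It was at 271 FPKM in BC1, 260 in APLNR+ cells, 0.559 in CD31+CD34+ cells and 0 in CD43+ cells. In BC1 it ranked 297 and in APLNR+ cells 329 among the 17137 genes, so its level at day 2 was still close to that of the pluripotent cells (1.04-fold lower, 1.01 to 1.08). It was 465-fold lower in CD31+CD34+ than in APLNR+ cells (300 to 742), from 8859 to 21 fragments, and 10 of the 17137 genes had a larger drop on the log2 scale. In CD43+ cells no fragment was counted, which places TDGF1 at least 6.31-fold below CD31+CD34+ cells and at least 3066-fold below BC1, against a floor of 3 fragments in that library. A processed copy elsewhere in the genome, TDGF1P3, shares 34.0% of the 50-base stretches of TDGF1 and stood at 3.51, 3.39, 0.017 and 0 FPKM. The log2 differences of their sum were -0.06, -7.39 and -0.66, against -0.06, -7.39 and -0.64 for TDGF1 alone.

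CER1 (ENSG00000147869.4, minus strand, chromosome 9 from 14719724 to 14722717) was the member with the largest changes. Its level was 2.50 FPKM in BC1, 2991 in APLNR+ cells, 0.090 in CD31+CD34+ cells and 0.050 in CD43+ cells. The APLNR+ library alone was high: CER1 ranked 14 of 17137 genes there, on 61126 fragments, against 47 in BC1, 2 in CD31+CD34+ cells and 1 in CD43+ cells. It was 1199-fold higher in APLNR+ cells than in BC1 (900 to 1630), and 1 gene rose more on the log2 scale. It was 33058-fold lower in CD31+CD34+ than in APLNR+ cells (9135 to 272491), and no gene fell more. CER1 shares no 50-base stretch with another annotated transcript. CER1 is also expressed in anterior endoderm, so endoderm markers were read beside it. SOX17 and FOXA2 were read as markers of definitive endoderm, while APOA1, TTR and AFP are also genes of visceral endoderm and liver. The 5 endoderm markers read (SOX17, FOXA2, APOA1, TTR, AFP) summed to 27.2 FPKM in BC1, 64.0 in APLNR+ cells, 19.95 in CD31+CD34+ cells and 5.46 in CD43+ cells, and 3, 4, 3 and 2 of the 5 reached 1 FPKM. SOX17 moved with CER1 at day 2, from 0.171 FPKM in BC1 to 16.6 FPKM in APLNR+ cells (97.5-fold, 47.1 to 244), and was at 11.8 FPKM in CD31+CD34+ cells and 0.157 FPKM in CD43+ cells. FOXA2 was at 0.522 FPKM in BC1 and 0.588 FPKM in APLNR+ cells. The part of endoderm cells in the CER1 level was not tested.

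LEFTY1 (ENSG00000243709.1, minus strand, chromosome 1 from 225886282 to 225911382) fell at both early steps and then rose. It stood at 17.9 FPKM in BC1, 4.27 in APLNR+ cells, 0.962 in CD31+CD34+ cells and 5.46 in CD43+ cells. It was 4.20-fold lower in APLNR+ cells than in BC1 (3.24 to 5.50) and 4.44-fold lower again in CD31+CD34+ cells (2.61 to 7.87). From CD31+CD34+ to CD43+ cells it was 5.67-fold higher (3.39 to 9.96), from 18 to 93 fragments, a difference of 1.72 on the log2 scale. LEFTY1 in CD43+ cells was still 3.28-fold below BC1 (2.59 to 4.19). Of the pluripotency markers, SOX2 was listed at 0 FPKM and NANOG at 0.009 FPKM in CD43+ cells, while DPPA4 was at 22.5 FPKM there.

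LEFTY2 (ENSG00000143768.12, minus strand, chromosome 1 from 225936598 to 225941489) took the same early course with smaller steps. Its level was 5.37 FPKM in BC1, 2.58 in APLNR+ cells, 0.985 in CD31+CD34+ cells and 1.29 in CD43+ cells. It was 2.08-fold lower in APLNR+ cells than in BC1 (1.65 to 2.67) and 2.62-fold lower in CD31+CD34+ than in APLNR+ cells (1.83 to 3.83). These steps were -0.83 and -0.85 on the log2(FPKM + 1) scale, which understates the change of low genes, so LEFTY2 was not counted as having fallen. Between CD31+CD34+ and CD43+ cells it was 1.30-fold higher, with an interval of 0.868 to 2.01 that holds 1. LEFTY1 made up 77.0% of the LEFTY1 and LEFTY2 sum in BC1, 62.4% in APLNR+ cells, 49.4% in CD31+CD34+ cells and 81.0% in CD43+ cells.

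LEFTY1 overlaps other annotated sequence, so its levels were also read in sums. LEFTY1 shares 26.8% of its 50-base stretches with LEFTY2 and 46.8% with any other gene. A second transcript unit on the same strand, AL117348.2, covers 46.6% of the exonic bases of LEFTY1. Its FPKM was below 0.0001 in BC1, APLNR+ and CD43+ cells and 0.335 in CD31+CD34+ cells, so it was highest where LEFTY1 was lowest. With both summed, the last step of LEFTY1 was 4.21-fold (a log2 difference of 1.49), and with LEFTY2 added as well it was 2.96-fold (1.24), so the sum still passed the difference of 1.

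**Figure D3:**
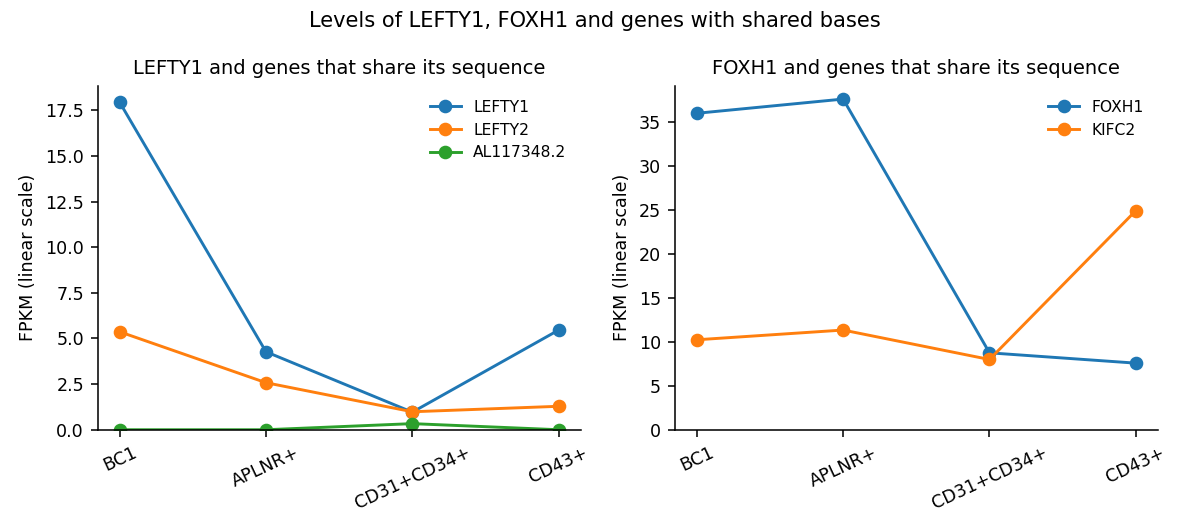
FPKM (linear axis) of LEFTY1 with LEFTY2 and AL117348.2, and of FOXH1 with KIFC2, in the 4 libraries, 1 library each. LEFTY1 went from 0.962 FPKM in CD31+CD34+ cells to 5.46 FPKM in CD43+ cells while LEFTY2 went from 0.985 to 1.29 FPKM, and KIFC2 went from 8.00 to 24.9 FPKM while FOXH1 went from 8.76 to 7.58 FPKM.

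The type I receptor ACVR1B (ENSG00000135503.12, plus strand, chromosome 12 from 51951667 to 51997078), a kinase that phosphorylates SMAD2 and SMAD3, was the one member that peaked in CD31+CD34+ cells. It stood at 7.32 FPKM in BC1, 10.8 in APLNR+ cells, 17.2 in CD31+CD34+ cells and 9.45 in CD43+ cells. It was 1.48-fold higher in APLNR+ cells than in BC1 (1.24 to 1.76), 1.59-fold higher in CD31+CD34+ than in APLNR+ cells (1.39 to 1.82) and 1.82-fold lower in CD43+ cells (1.58 to 2.09). Each step was under 1 on the log2 scale. From BC1 to CD31+CD34+ cells ACVR1B was 2.34-fold higher (2.01 to 2.75, a log2 difference of 1.13).

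The type II receptors bind the ligand and are shared with activin and several BMPs. ACVR2A (ENSG00000121989.14, plus strand, chromosome 2 from 147844517 to 147930826) was at 3.06 FPKM in BC1, 6.00 in APLNR+ cells, 2.32 in CD31+CD34+ cells and 1.40 in CD43+ cells. It was 1.96-fold higher in APLNR+ cells than in BC1 (1.70 to 2.26), 2.59-fold lower in CD31+CD34+ cells (2.23 to 2.99) and 1.66-fold lower again in CD43+ cells (1.36 to 2.05). ORC4, on the opposite strand, covers 6.35% of the exonic bases of ACVR2A and stood at 39.5, 24.7, 30.5 and 31.1 FPKM, above ACVR2A in every library, and its part in the ACVR2A values was not tested. ACVR2B (ENSG00000114739.13, plus strand, chromosome 3 from 38453851 to 38493142) was the more abundant, at 13.5, 17.3, 12.7 and 8.52 FPKM. Its steps were 1.29-fold higher (1.23 to 1.35), 1.37-fold lower (1.31 to 1.43) and 1.49-fold lower (1.41 to 1.57), and its highest level was closer to its lowest, as a ratio, than for any other of the 10 genes. ACVR2B exceeded ACVR2A by 4.39-fold, 2.89-fold, 5.45-fold and 6.10-fold in the 4 libraries in order. Both type II receptors were thus highest in APLNR+ cells, and the summed receptor level was 23.9, 34.2, 32.1 and 19.4 FPKM.

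FOXH1 (ENSG00000160973.7, minus strand, chromosome 8 from 144473412 to 144476335) binds SMAD2 and SMAD3 complexes to DNA. It stood at 36.0 FPKM in BC1, 37.6 in APLNR+ cells, 8.76 in CD31+CD34+ cells and 7.58 in CD43+ cells, so the libraries fell into a high pair and a low pair. Between BC1 and APLNR+ cells it was 1.04-fold higher, with an interval of 0.976 to 1.12 that holds 1. It was 4.30-fold lower in CD31+CD34+ than in APLNR+ cells (3.88 to 4.78) and 1.15-fold lower in CD43+ cells (1.004 to 1.33). KIFC2, a kinesin gene on the opposite strand, overlaps 31.6% of the exonic bases of FOXH1 and stood at 10.2, 11.3, 8.00 and 24.9 FPKM. How strand was handled is not given in the sources used here, so fragments of the overlap may count for either gene. The summed level of both genes differed by 0.08, -1.49 and 0.92 on the log2 scale at the 3 transitions. For FOXH1 alone the differences were 0.06, -1.99 and -0.19. The sum takes in all of KIFC2, not only the overlap, and KIFC2 rose from 8.00 to 24.9 FPKM at the last step. The direction of the sum there therefore does not show how shared fragments affect FOXH1.

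The roles kept different courses when their members were summed. The antagonists summed to 25.8 FPKM in BC1, 2998 in APLNR+ cells, 2.04 in CD31+CD34+ cells and 6.80 in CD43+ cells. CER1 made up 9.67%, 99.8%, 4.44% and 0.731% of these sums, so the antagonist level in APLNR+ cells was that of CER1 and in the other libraries mainly that of the LEFTY genes. The ratio of antagonist to ligand FPKM was 1.93 in BC1, 259 in APLNR+ cells, 0.930 in CD31+CD34+ cells and 5.68 in CD43+ cells. Without CER1, the ratio of LEFTY to ligand FPKM was 1.74, 0.592, 0.888 and 5.64. The APLNR+ ratio thus turned on CER1. ACVR1B made up 30.7%, 31.7%, 53.4% and 48.8% of the receptor sum.

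**Figure D4:**
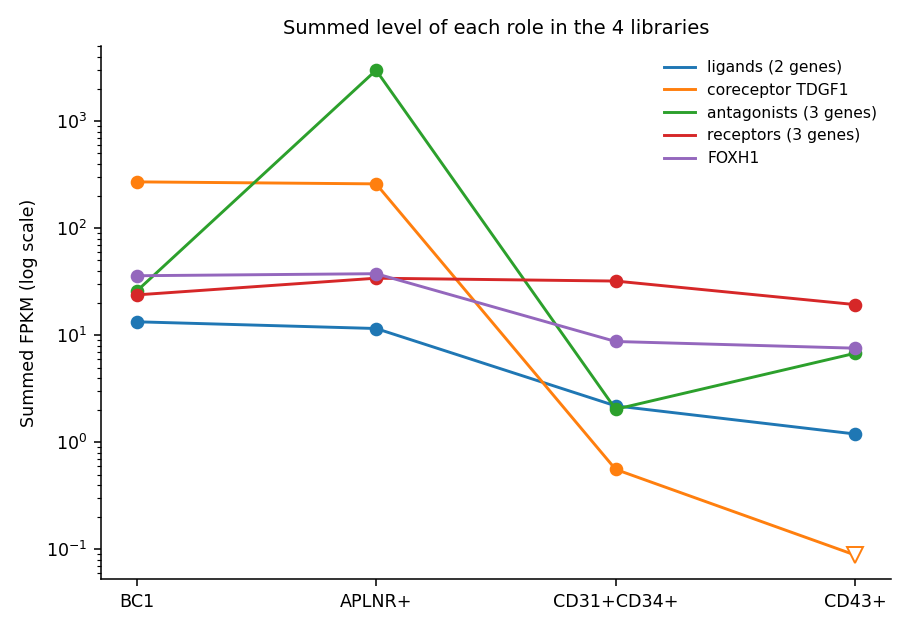
Summed FPKM of each role (log axis) in the 4 libraries, 1 library each. The open triangle is the 3-fragment floor of TDGF1, which was listed at 0 FPKM in CD43+ cells. The receptor sum stayed between 19.4 and 34.2 FPKM, while the ligand sum went from 13.4 FPKM in BC1 to 1.20 FPKM in CD43+ cells.

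Genes whose course was most like that of a member were found by the root mean squared difference of log2(FPKM + 1), centred on each gene's mean, over the 4 libraries. The comparison covered 8932 protein-coding genes with at least 10 FPKM in a library. Nearest to TDGF1 were L1TD1 (0.64), ZIC2 (0.92) and POU5F1 (0.96), of which L1TD1 and POU5F1 are markers of pluripotent cells. Nearest to CER1 were MFAP4 (1.11), MIXL1 (1.38) and CYP26A1 (1.39), so even the nearest gene was well apart from it. MFAP4 encodes a matrix protein, MIXL1 a homeobox factor of the primitive streak and CYP26A1 an enzyme that clears retinoic acid. LEFTY1 was nearest to PLA2G3 (0.25), RAP1GAP2 (0.28) and DENND1C (0.29), GDF3 to NNAT (0.07), SOX11 (0.09) and PLEKHB1 (0.11), and FOXH1 to FKBP11 (0.07), CBS (0.13) and C3 (0.16). ACVR1B was nearest to THAP3, ZNF277 and RAB43, and ACVR2B to CCDC24, ADRM1 and SNRPA, at 0.04 or less after rounding. Each likeness rests on 4 libraries and is a description.

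The other genes of the Nodal and activin pathway were read from a list of 29, of which 22 passed the filter. On the way from BC1 to APLNR+ cells 8 rose and 1 fell, into CD31+CD34+ cells 1 rose and 7 fell, and into CD43+ cells 2 rose and 5 fell. The shares of all genes that rose and fell at these steps were 9.15% and 9.32%, 13% and 11.4%, and 7.63% and 13.5%, so the number that rose at the last step was close to the background. Their median differences were 0.42, -0.51 and -0.42, beside 0.00, 0.01 and -0.08 over all genes.

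Other ligands were mostly low. INHBA and INHBB, which encode the subunits of activins A and B, did not reach 1 FPKM in any library. INHBE, which encodes another activin subunit, was at 2.36 FPKM in BC1, 2.15 in APLNR+ cells, 0.440 in CD31+CD34+ cells and 0.058 in CD43+ cells, and it fell 4.89-fold from APLNR+ to CD31+CD34+ cells (2.79 to 9.29). GDF11, a ligand of the same receptors, was at 11.5 FPKM in BC1, 14.9 in APLNR+ cells, 20.9 in CD31+CD34+ cells and 26.6 in CD43+ cells, so it stood above the NODAL and GDF3 sum from APLNR+ cells on. CFC1, the other EGF-CFC coreceptor, was listed at 0 FPKM in BC1, 3.75 in APLNR+ cells, 0.221 in CD31+CD34+ cells and 0 in CD43+ cells. Its near copy CFC1B was listed at 0 throughout, so fragments of either may have been given to CFC1. The convertases that cleave the ligand precursors differed from each other. FURIN was at 18.7, 48.7, 183 and 79.6 FPKM and PCSK6 at 1.47, 3.52, 2.73 and 55.3 FPKM, so the former peaked in CD31+CD34+ cells and the latter rose 20.3-fold into CD43+ cells (17.4 to 23.6).

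SMAD2 and SMAD3, effectors of the pathway, both rose into APLNR+ cells, while the effectors SMAD4 and TRIM33 were lower there than in BC1. SMAD4 was at 46.7 FPKM in BC1 and 34.0 FPKM in APLNR+ cells (1.37-fold lower, 1.20 to 1.58). TRIM33 was at 13.6 FPKM in BC1 and 9.57 FPKM in APLNR+ cells (1.43-fold lower, 1.29 to 1.58). SMAD2 was at 24.6, 64.5, 37.1 and 31.6 FPKM and SMAD3 at 11.1, 45.7, 20.6 and 9.90 FPKM, which were 2.63-fold (2.38 to 2.90) and 4.13-fold (3.27 to 5.21) higher in APLNR+ cells than in BC1. Of the extracellular inhibitors, FST (follistatin, which binds activin) was at 3.47, 44.8, 1.19 and 0.021 FPKM. Like CER1, FST rose into APLNR+ cells, by 12.9-fold (10.4 to 16.0), and then fell, by 37.7-fold (27.5 to 54.4). BAMBI, a membrane pseudoreceptor, was at 14.3, 145, 87.5 and 101 FPKM and so stayed high after the rise. Among the inhibitors inside the cell, SMAD7 was at 13.0, 46.0, 32.2 and 1.27 FPKM and PMEPA1 at 15.9, 53.6, 9.20 and 2.01 FPKM, both highest in APLNR+ cells and lowest in CD43+ cells. SKIL was at 39.7, 22.7, 9.40 and 2.46 FPKM and TGIF1 at 126, 72.3, 23.4 and 12.8 FPKM, both highest in BC1.

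Genes known as targets of Nodal and activin signalling were read from a list of 13. MIXL1, TBXT, SOX17, FOXA2 and NANOG in it are also in the marker lists above, so these lists are not separate readings. Of the 13 target genes, 12 passed the filter. From BC1 to APLNR+ cells 11 rose and 1 fell (NANOG), from APLNR+ to CD31+CD34+ cells 1 rose (HHEX) and 8 fell, and from CD31+CD34+ to CD43+ cells none rose and 6 fell. Their median differences were 3.71, -3.80 and -0.72, beside 0.00, 0.01 and -0.08 over all genes, of which 9.15%, 13% and 7.63% rose and 9.32%, 11.4% and 13.5% fell. EOMES, a T-box factor of mesendoderm, was at 0.244, 205, 0.280 and 0 FPKM, and MIXL1 was at 0.931, 474, 0.982 and 0.468 FPKM. GSC, a homeobox gene of the organizer, was at 0.303, 111, 0 and 0.047 FPKM. These 3 genes were high in the APLNR+ library alone, as CER1 was. LHX1 (0.016, 90.1, 4.90 and 0.192 FPKM) and GATA6 (0.043, 363, 57.8 and 12.3 FPKM) also peaked in APLNR+ cells and fell at both later steps. OTX2 was at 20.5, 82.8, 1.004 and 0 FPKM, so it was already present in BC1. NANOG was at 23.6, 0.957, 0.035 and 0.009 FPKM and fell 24.6-fold at day 2 (14.4 to 50.2), a step at which NODAL and LEFTY1 also fell. HHEX, which is also used in endothelial and blood precursors, was at 0.380, 7.13, 87.9 and 31.5 FPKM and peaked in CD31+CD34+ cells.

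**Figure D5:**
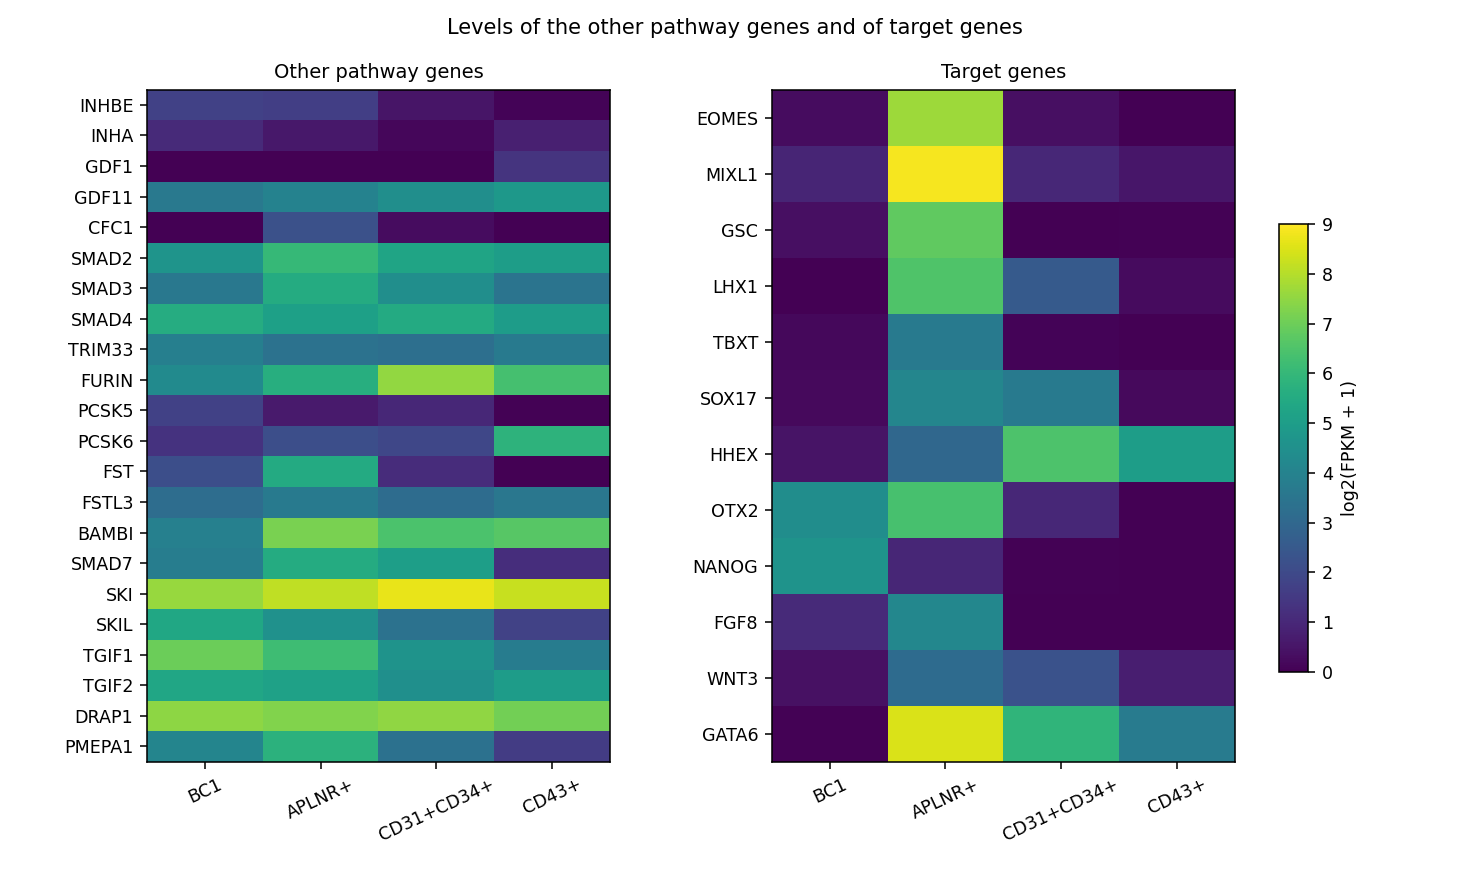
log2(FPKM + 1) of the 22 other pathway genes and the 12 target genes that passed the filter, in the 4 libraries, 1 library each (colour scale from 0 to 9). Among the targets, EOMES, MIXL1, GSC and GATA6 are bright in APLNR+ cells, at 205, 474, 111 and 363 FPKM, and NANOG is brightest in BC1, at 23.6 FPKM.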

How the data were processed

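Total RNA libraries were made with an Illumina TruSeq kit from the 4 populations. The authors deposited gene-level FPKM values in 1 table, with 1 column per library. The submitters' processing notes name BWA, Bowtie, RSEM and hg19, with no role, order or version, while 55645 of 58274 gene identifiers had the version and position of GENCODE release 29 on GRCh38, and coordinates are therefore those of GRCh38, 1-based. Strand handling and filters are not given in the sources used here. For 90 identifiers spread over several rows, the rows were added up. Every column of expression values was used.

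FPKM is not a count, so no count model was fitted. Mapped fragments were recovered from the steps of low FPKM values of genes annotated with 1 transcript only, 1000 bases or longer. They came to 19700000 in BC1, 21400000 in APLNR+ cells, 23600000 in CD31+CD34+ cells and 21550000 in CD43+ cells. Between 93.2% and 95.1% of low values then fell within 0.1 of a whole number of fragments. Fragments per gene are approximate, since the median protein-coding transcript length stood for each gene. Folds carry exact Clopper-Pearson 95% intervals, and folds against 0 use a floor of 3 fragments per library; both cover counting error only, not variation between cultures or sorts. Differences are of log2(FPKM + 1), a scale that understates the change of low genes, over the 17137 genes that reached 1 FPKM in any library, and a difference of at least 1 counts as a change.

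The members and gene lists were chosen with earlier results of these data known, and a few items are not reported here. All 10 members were named, and list genes with at least 5 FPKM and a change of at least 1 could be named. CFC1, CFC1B, GDF11, INHBA, INHBB, INHBE, FOXA2, SMAD4, TRIM33 and EMCN were added after their values were seen. For likeness, the nearest 3 genes were named for each member with at least 10 FPKM in a library. Alternatives covered the pseudocount, the scaling, the filter, the threshold, the rows of an identifier, the transcript length and sums with overlapping genes. Python 3.11.15, numpy 2.4.6, pandas 2.3.3, SciPy 1.17.1 and matplotlib 3.10.9 were used.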

Additional observations from a re-analysis of the deposited data

How the results depend on the processing

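No member changed direction when the libraries were scaled by the median of ratios or rescaled to TPM. Every count of genes stayed within 1.5 times under these scalings and under the largest row of an identifier only. Each member has 1 row, so that last setting could not move the members. Without the filter on low values no count could change, since a gene under 1 FPKM in every library cannot reach a difference of 1. A threshold of 2 in place of 1 left 0 members that fell from BC1 to APLNR+, 2 that fell from APLNR+ to CD31+CD34+ (TDGF1 and CER1) and 0 that rose from CD31+CD34+ to CD43+. At that threshold the other pathway genes that rose and fell were 3 and 0, then 0 and 2, then 1 and 1, the targets that fell at the last step were 3, and all genes that rose and fell were 460 and 393, then 699 and 539, then 391 and 741. With a pseudocount of 0.1 FPKM, 3 members fell from BC1 to APLNR+ and 1 from CD31+CD34+ to CD43+, 2 other pathway genes fell at the former step and 9 at the latter, and all genes that fell were 2575 and 3488. With a filter of 5 FPKM, 0 other pathway genes fell from BC1 to APLNR+, 1 rose from CD31+CD34+ to CD43+, and 1019 of all genes fell at the former step. The stricter threshold and filter lower counts by construction, and the smaller pseudocount enlarges the differences of low values by construction. The sums with AL117348.2, LEFTY2, TDGF1P3, AC022532.1 and KIFC2 were chosen after seeing the data. No interval changed its side of 1 with the longest transcript. The fold does not depend on that length, and a longer transcript gives more fragments and so narrower intervals by construction. No paired analysis was possible because each population had 1 library. With that design, the spread between cultures and sorts is unknown, and levels of at most 3 fragments (NODAL and CER1 from CD31+CD34+ cells on, TDGF1 in CD43+ cells) are at the limit of the depth.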
